A study of Mus musculus with 12 samples.

Results

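Common lymphoid progenitors (CLPs) sorted from mice that carry a doxycycline-inducible Firre transgene in a Firre-null background (Firre rescue) were compared with CLPs from Firre-null mice (∆Firre). The comparison holds 8 of the 12 RNA-seq libraries of the study, 4 Firre rescue libraries (numbered 1, 2, 3 and 4) and 4 ∆Firre libraries (numbered 8, 9, 11 and 12), and all came from male mice, with 1 mouse per library. The other 4 libraries, from WT mice, entered only an alternative fit of all 12 libraries and no other test. Their levels are given where they help to place a value. Members were chosen by the genotype in the sample labels, and the features are the 14350 of 47643 genes in the table with a mean TPM of at least 1 (TPM gives the level of a transcript per unit of its length, as a share of its library) over the 8 libraries.

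Both groups share the ∆Firre allele, in which the gene body and promoter of Firre were removed through loxP sites by a ubiquitously expressed Cre. The rescue mice carried in addition tg(Firre), a Firre cDNA behind a tet-responsive element and a minimal promoter, together with the CAG-rtTA transactivator, and were given doxycycline in the chow. Transgene and transactivator are therefore not restricted to CLPs. The labels do not give doxycycline for the ∆Firre mice, so the transgene RNA, the transactivator and doxycycline differ between the groups together and cannot be told apart. The rescue libraries also carry library numbers of 1 range and the ∆Firre libraries of another, and library preparation and genotype cannot be told apart either. The comparison addresses which RNAs change in CLPs when Firre RNA is supplied from another site in the genome.

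Firre is an X-linked long non-coding RNA that is found in the nucleus and in some settings also in the cytoplasm. CLPs are bone marrow progenitors, recognized by the IL-7 receptor and Flt3 with low Kit and Sca1 (encoded by Ly6a), that give rise to B cells, T cells, natural killer (NK) cells and other innate lymphoid cells. Within the CLP gate, cells that begin to express Ly6d and the recombinase genes are the ones biased to the B lineage, and assembly of the pre-B cell receptor follows with the surrogate light chain genes Vpreb1 and Igll1.

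The Firre rescue libraries held 25307410 to 32016169 reads in genes, recovered from the step size of the deposited TPM, and the ∆Firre libraries 14099623 to 17267277. Despite the larger read numbers, fewer genes were above 0 in the rescue libraries (15140 to 16835) than in the ∆Firre libraries (17910 to 19098). Pearson correlations of log2(TPM + 1) were 0.920 to 0.936 within ∆Firre, 0.898 to 0.928 within rescue and 0.843 to 0.896 between the groups. The sort took lineage-negative IL7Rα+ cells with low Sca1 and low c-Kit, and Flt3, which also marks CLPs, was not part of it. The RNAs of Il7r, Flt3, Ly6a and Kit were present in all 8 libraries. Il7r measured 423 ± 74.8 TPM in ∆Firre and 404 ± 41.1 TPM in rescue (mean ± SD, n = 4 each, as for all values given as mean ± SD below), Flt3 555 ± 35.02 and 591 ± 82.3 TPM, and Ly6a 42.7 ± 4.65 and 43.4 ± 6.69 TPM. None of these 3 passed the test (limma adjusted p of 0.806, 0.620 and 0.942). Kit fell from 75.1 ± 5.11 to 53.4 ± 6.22 TPM, without overlap of the groups (limma adjusted p = 0.0187). Of the 14350 genes tested, 2235 were lower in rescue without overlap. After a correction for exon GC content, the log2 difference of Kit was -0.20 and did not pass.

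Firre itself (chrX:50563120-50635321, GRCm38) was listed at 0 TPM in every ∆Firre library. The rescue libraries held 59.9, 136, 63.0 and 174 TPM in libraries 1 to 4, against 28.4 ± 3.05 TPM (SD, n = 4) in WT. Each rescue library was above the WT level, and libraries 2 and 4 were more than libraries 1 and 3. The difference on the log2(TPM + 1) scale was 6.62, a size that the pseudocount of 1 sets because ∆Firre was at 0 (p = 0.0286 by exact permutation over the 70 labelings, two-sided and the lowest value that 4 against 4 allow). The level of Firre followed the labelled genotype in all 8 libraries.

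Across the 14350 genes, 1118 were higher in rescue and 2350 lower at a limma adjusted p of 0.1 or less, which is 7.79% and 16.4% of the genes tested. The genes tested had a median log2 fold change of -0.16, and a median-ratio rescaling of the libraries moved it to -0.04 and the calls to 1767 higher and 1610 lower, so that the share of calls that were higher changed from 32.2% to 52.3%. Calls made in the same direction on both scales numbered 1117 higher and 1610 lower, or 7.78% and 11.2%, and these are meant below by "on both scales". At 2-fold or more, 269 genes were higher and 731 lower on both scales. When the test statistic was divided by the spread of its own central part (1.806), 0 genes passed in limma, with 610 genes at an unadjusted p under 0.05 there against 4596 in the unscaled test. All calls given here use the usual null distribution of limma. With 1 library left out, 668 (without ∆Firre library 9) to 1429 genes (without rescue library 2) were called higher and 1396 (without ∆Firre library 12) to 3104 (without rescue library 3) lower.

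The fold changes followed the GC content of the exons. Genes called higher had a median exon GC content of 55.8%, genes called lower 44.8% and genes not called 49.9%. The Spearman correlation between fold change and exon GC over 12989 named genes was 0.45, given as a description because the genes share the same 8 libraries. The median log2 fold change went from -0.43 in genes with 36 to 38% GC to 0.63 in genes with 64 to 66% GC. After a spline on exon GC was subtracted in each library, the limma test called 1643 genes higher (12.6%) and 716 lower (5.51%) of 12989, and 69.7% of its calls were higher. Values with this correction are given below as GC-corrected. Of the genes named as not passing the test, Il7r, Flt3, Rag2, Ikzf1, Myb, Irf8, Erg, Syk, Cct3, Cct4, Rpl3 and Eef1a1 were called higher and Maff lower by limma when GC-corrected. The part of GC content in any single result was not tested.

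**Figure D1:**
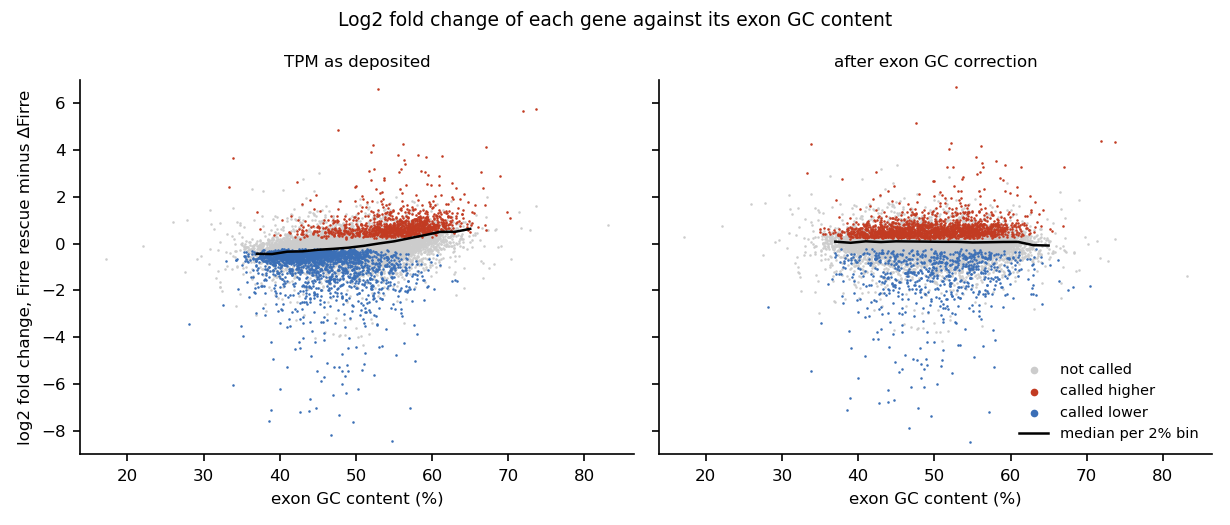
Log2 fold change (Firre rescue minus ∆Firre) against exon GC content (%) with 1 point per gene, coloured by its call, on TPM as deposited (left) and after the GC correction (right), where the black line is the median of genes in bins of 2% GC. The line climbs from -0.43 at 36 to 38% GC to 0.63 at 64 to 66% GC on the left, and stays between -0.08 and 0.10 on the right.

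Genes of basophils and mast cells fell. Of 15 genes of this list in the table, 12 were tested, 11 fell and 0 rose, on both scales and also GC-corrected, with a median log2 fold change of -4.53 against -0.16 over all genes. Their summed level was 3128 to 4605 TPM in ∆Firre, 108 to 253 TPM in rescue and 1265 to 9806 TPM in WT. The Tpsb2, Mcpt4 and Cma1 genes, which encode tryptase and chymases of connective tissue mast cells, were at 0 in both groups. In bulk samples such as these, fewer cells of a type and less RNA per cell cannot be told apart, and the part of a few basophil-lineage cells in the sorted CLPs was not tested. The sort required IL7Rα and a lack of lineage markers, among them CD11b. The purity of the sorted cells is not given in the sources used here.

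Prss34 (chr17:25298394-25300168), a serine protease of basophils, measured 1939, 1396, 1372 and 1413 TPM in ∆Firre libraries 8, 9, 11 and 12 and 12.8, 23.8, 0 and 0 TPM in rescue libraries 1 to 4. The groups were far apart, and the log2 fold change was -8.46 ± 0.97 (SE, limma adjusted p = 0.000718). Mcpt8, the basophil protease mMCP-8, measured 1280, 1030, 792 and 777 TPM in ∆Firre and 20.7, 22.6, 9.06 and 2.11 TPM in rescue, a log2 fold change of -6.40 ± 0.55 (limma adjusted p = 0.000161). Both subunit genes of the high-affinity IgE receptor in the list went the same way. Ms4a2, its beta chain, fell from 203 ± 44.2 TPM to 0.0319 ± 0.0638 TPM, with 3 of the 4 rescue libraries at 0. Fcer1a, its alpha chain, fell from 245 ± 61.1 TPM to 1.53 ± 3.06 TPM, again with a value above 0 in rescue library 2 alone. Cpa3, a carboxypeptidase of mast cells and basophils that is also found in early progenitors, remained at 61.4 to 89.2 TPM in rescue against 310.0 to 435.9 TPM in ∆Firre (log2 fold change -2.21 ± 0.14, limma adjusted p = 2.29e-05). Gata2, the transcription factor of this lineage and of stem cells, fell from 39.7 ± 8.15 to 0.244 ± 0.289 TPM (limma adjusted p = 7.45e-06). Ccl4 was the exception among the 12, at 35.8 TPM in ∆Firre and 61.2 TPM in rescue without passing the test.

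The promoters of this list were searched for the GATA motif, and the upstream sequences of Prss34 and Cpa3, which hold it, are shown. The motif AGATAA (searched on both strands, so also TTATCT) was present between 250 bases before and 50 bases after the RefSeq start (GRCm38.p6) in 5 of the 11 basophil and mast cell genes with a promoter entry, against 12.7% of 27025 genes. Mcpt8 and Gata2 itself were among the genes without it. A match of these letters is a description and not a site of binding. The 250 bases before the start of Prss34 (chr17:25298144-25298393, plus strand) and of Cpa3 (chr3:20242182-20242431, minus strand) follow, 5′ to 3′, with the motif in capitals.
Prss34: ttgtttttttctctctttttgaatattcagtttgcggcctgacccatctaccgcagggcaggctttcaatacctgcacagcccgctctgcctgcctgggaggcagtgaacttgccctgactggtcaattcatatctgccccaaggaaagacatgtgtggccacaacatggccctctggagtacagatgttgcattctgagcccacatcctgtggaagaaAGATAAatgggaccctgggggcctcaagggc
Cpa3: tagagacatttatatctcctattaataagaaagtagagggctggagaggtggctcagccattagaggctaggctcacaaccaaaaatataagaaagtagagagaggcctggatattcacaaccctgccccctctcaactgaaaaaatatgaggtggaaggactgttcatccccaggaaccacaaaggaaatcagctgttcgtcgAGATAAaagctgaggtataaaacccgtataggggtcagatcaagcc
The motif began 31 bases before the start in Prss34 and 46 bases before the start in Cpa3.

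With immunoglobulin genes left out of the ranking, other genes among the 12 largest falls were the following. Lilr4b, an immunoglobulin-like receptor gene of mast cells and other myeloid cells (gp49A), fell from 208 ± 46.7 to 0.613 ± 0.963 TPM. Ccl6, a chemokine of myeloid cells, fell from 206 ± 46.5 to 4.44 ± 4.85 TPM, Cd200r3, an activating receptor of basophils, from 46.1 ± 12.9 to 0.260 ± 0.509 TPM, and Cdh1 (E-cadherin) from 46.7 ± 6.43 to 0.398 ± 0.490 TPM. Ccr1, a chemokine receptor, fell from 33.1 ± 10.7 to 0.0713 ± 0.143 TPM. Alox15, a lipoxygenase of eosinophils and macrophages, was at 37.5 to 68.8 TPM in ∆Firre and listed at 0 in all 4 rescue libraries. The ranking took only genes called without overlap of the groups, so the lack of overlap here was set by that choice. Over all genes tested, 2235 of 14350 were lower in rescue without overlap. The limma adjusted p of the genes named here was 0.000504 or less.

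**Figure D2:**
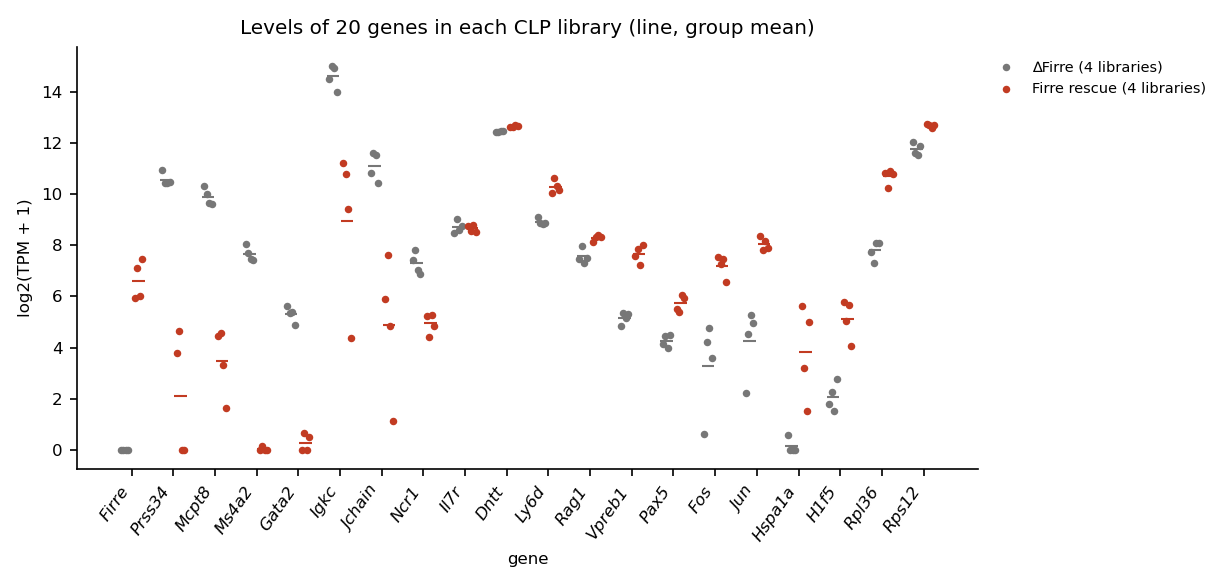
Level of 20 genes as log2(TPM + 1) in the 4 ∆Firre libraries (grey) and the 4 Firre rescue libraries (red), with 1 point per library and a line at each group mean. Firre is at 0 in ∆Firre, the basophil genes, Igkc and Jchain separate downward in rescue, Vpreb1, Fos, Jun and Rpl36 separate upward, and the groups overlap for Il7r.

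Immunoglobulin and plasma cell transcripts fell as well, in part. Of 105 immunoglobulin variable genes in the table, 62 were tested, 22 fell on both scales and 0 rose, with 21 falling GC-corrected and 10 in limma-voom on recovered reads, and their median log2 fold change was -3.23. By locus, 18 of 44 kappa genes, 2 of 15 heavy-chain genes and 2 of 3 lambda genes passed. The heavy-chain share was near that of all genes called lower (16.4% on TPM and 11.2% on both scales). The summed level of the variable genes was 5214, 7398, 9960 and 4151 TPM in ∆Firre libraries 8, 9, 11 and 12 and 675, 272, 35.6 and 53.3 TPM in rescue libraries 1 to 4. The groups did not overlap, with a log2 difference of the sums of -5.51 (p = 0.0286, two-sided and exact, again the lowest value the permutations allow). Without ∆Firre library 11 the difference was -5.30 and p = 0.0571 in the exact test. With 1 library left out the difference ranged from -6.28 (without rescue library 1) to -4.87 (without rescue library 3). WT libraries held 2832 to 3890 TPM. Each B-lineage clone uses its own rearranged variable genes. Single variable genes varied widely within a group. Igkv8-24 measured 111, 11.9, 1221 and 0.978 TPM in the ∆Firre libraries and was listed at 0 in all rescue libraries. Iglv1 measured 2118 TPM in ∆Firre library 11 and 390 to 539 TPM in the other ∆Firre libraries, against 0 to 12.03 TPM in rescue. The call of Igkv8-24 was lost in limma-voom and without ∆Firre library 8 or rescue library 4 (limma adjusted p up to 0.132). Reads of near-identical variable genes can be assigned to one another, so the values of single variable genes are uncertain.

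The constant genes followed in part. Igkc, the kappa constant region (chr6:70726435-70726754), measured 22960, 32650, 30800 and 16161 TPM in ∆Firre and 2392, 1760, 678 and 19.9 TPM in rescue (log2 fold change -5.64 ± 1.25, limma adjusted p = 0.0176). On the log scale its rescue libraries were more spread out than its ∆Firre libraries, and all were lower. The fall is smaller without the lowest rescue library, at 19.9 TPM. Iglc2, a lambda constant region, fell from 169 ± 74.7 to 22.6 ± 37.9 TPM. Ighm, the mu heavy chain whose locus is transcribed before rearrangement in progenitors, fell much less, from 4115 ± 810 to 2498 ± 110 TPM (log2 fold change -0.70 ± 0.13, limma adjusted p = 0.00973). Ighg1 and Ighg2c did not pass the test. In all, 3 of the 6 constant genes fell and 0 rose.

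Genes of antibody-secreting cells fell in 9 of 15 cases and rose in 2, with 8 falls on both scales and a median of -0.99. Jchain, which links IgM and IgA multimers, measured 1369 to 3110 TPM in ∆Firre and 58.1, 195, 27.7 and 1.18 TPM in rescue (log2 fold change -6.23 ± 1.10, limma adjusted p = 0.00692). Its fall is smaller without the lowest rescue library, at 1.18 TPM. Tnfrsf17, the survival receptor BCMA of plasma cells, fell from 9.02 ± 2.27 to 0.468 ± 0.936 TPM, and Prdm1 (Blimp-1), the plasma cell transcription factor, from 4.78 ± 1.82 to 0.900 ± 0.314 TPM. Xbp1 and Txndc5, which serve secretion and protein folding, fell less, from 152 ± 24.9 to 99.5 ± 9.42 TPM and from 101.4 ± 18.5 to 54.4 ± 8.97 TPM. The 2 members that rose were the following. Mzb1, an endoplasmic reticulum cochaperone of B cells, rose from 56.1 ± 7.26 to 151 ± 56.9 TPM, and Sdc1 (CD138), which is also on pre-B cells, from 52.6 ± 6.64 to 85.5 ± 15.7 TPM. The summed level of the list was 1978 to 3962 TPM in ∆Firre, 511 to 858 TPM in rescue and 1245 to 1977 TPM in WT, and the part of admixed plasma cells was not tested. The sort took lineage-negative IL7Rα+ cells with low Sca1 and low c-Kit, and its purity is not given in the sources used here.

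NK and innate lymphoid genes fell in part. Of 14 NK and cytotoxic genes 9 fell, 7 on both scales and 8 GC-corrected, and 0 rose (median -1.23). Ncr1, the activating receptor NKp46, measured 168, 226, 130 and 118 TPM in ∆Firre and 37.2, 20.4, 37.4 and 27.8 TPM in rescue, a log2 fold change of -2.34 ± 0.24 (limma adjusted p = 0.000421). Klrb1c (NK1.1) fell from 51.9 ± 20.7 to 10.1 ± 4.86 TPM and Gzmb, a granzyme, from 5.68 ± 0.724 to 0.0386 ± 0.0772 TPM. Il2rb, the receptor chain shared by IL-2 and IL-15, fell from 87.3 ± 19.4 to 38.6 ± 19.3 TPM, and the chemokine Ccl5 from 92.3 ± 28.7 to 41.7 ± 12.9 TPM. Eomes, Nkg7 and Klrd1, which mark NK cells as well, did not pass the test. The summed level was 841 to 1324 TPM in ∆Firre, 499 to 612 TPM in rescue and 734 to 1402 TPM in WT.

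Among 11 tested genes of type 2 innate lymphoid cells 7 fell and 2 rose (median -0.93), with 6 falls on both scales and 5 GC-corrected. Id2, the inhibitor of E proteins that all innate lymphoid cells need, measured 285, 455, 254 and 354 TPM in ∆Firre and 161, 175, 152 and 155 TPM in rescue (log2 fold change -1.03 ± 0.16, limma adjusted p = 0.00392). Il1rl1, the IL-33 receptor, fell from 13.4 ± 3.48 to 3.94 ± 3.24 TPM, and Il17rb, the IL-25 receptor, from 43.1 ± 9.25 to 22.1 ± 7.70 TPM. Icos fell from 40.9 ± 4.52 to 26.0 ± 3.73 TPM, a call lost GC-corrected. The cytokine genes Il13, Areg and Calca were at 0 in both groups, and Il5 averaged 0.531 TPM in ∆Firre and 0 TPM in rescue. Hes1, a target of Notch signalling, went the other way, from 17.3 ± 4.45 to 33.4 ± 5.79 TPM, as did Il9r, from 0.927 ± 0.598 to 7.005 ± 2.43 TPM. The calls of Il1rl1 and Il17rb were each lost without 1 of 2 ∆Firre libraries (8 or 11 for Il1rl1, limma adjusted p up to 0.107, and 11 or 12 for Il17rb, up to 0.112).

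Early T-lineage genes fell in 5 of 14 cases and Hes1 alone rose. Thy1 fell from 79.4 ± 10.8 to 39.6 ± 4.90 TPM, Cd7 from 125 ± 13.2 to 64.0 ± 7.14 TPM and Gata3 from 26.9 ± 5.36 to 14.9 ± 3.895 TPM, the last with overlapping groups and a call lost without ∆Firre library 9 or 11 (limma adjusted p up to 0.106). Notch1, Lck and Tcf7 did not pass the test. The T cell receptor complex genes Cd3e and Cd3d and the coreceptor gene Cd8a averaged under 1 TPM in both groups, and the summed level of the list was 596 to 792 TPM in ∆Firre and 482 to 612 TPM in rescue, which overlap.

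Myeloid lists were less uniform, and their counts stand beside 7.79% higher and 16.4% lower of all genes tested on TPM. Monocyte and macrophage genes fell in 5 of 13 cases and rose in 1 (median -0.70), and GC-corrected 3 fell and 0 rose. Ccr2, the chemokine receptor of monocytes and some progenitors, measured 62.6 to 89.0 TPM in ∆Firre and 16.97 to 21.2 TPM in rescue (log2 fold change -1.92 ± 0.14, limma adjusted p = 4.84e-05), and Ms4a6c fell from 61.9 ± 7.49 to 21.9 ± 7.44 TPM. Irf5 rose from 18.7 ± 2.95 to 27.1 ± 4.76 TPM with overlapping groups, a call lost GC-corrected and without any 1 of 5 libraries (∆Firre 8, 11 and 12, rescue 1 and 4, limma adjusted p up to 0.166). Outside the list, C1qc, a complement gene of macrophages, was among the 12 largest rises (ranked without immunoglobulin genes and unnamed or small RNA genes), at 0.180 ± 0.238 TPM in ∆Firre and 2.95, 37.6, 9.10 and 7.31 TPM in rescue. Of 15 tested neutrophil granule genes 4 fell and 0 rose. Ctsg fell from 133 ± 12.2 to 47.0 ± 16.9 TPM and Mpo from 191 ± 18.7 to 131 ± 28.0 TPM, and both are also expressed in immature myeloid progenitors. Without ∆Firre library 9 or 12 the limma adjusted p of Mpo went up to 0.103. Elane, Ltf, Camp, Ngp, S100a8 and S100a9 did not pass the test, and the summed levels of 332 to 1893 TPM in ∆Firre and 196 to 1678 TPM in rescue overlapped. Of 10 eosinophil genes 2 fell, and the granule protein genes Prg2, Prg3, Epx and Ear1 did not pass. Of 4 tested megakaryocyte and platelet genes 2 fell. Itga2b (CD41) went from 27.4 ± 4.38 to 1.02 ± 0.608 TPM and Ppbp from 28.0 ± 13.5 to 0.811 ± 1.56 TPM, whereas Pf4 and Gp9 did not pass. Of 11 erythroid genes 0 passed in either direction.

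Stem and multipotent progenitor genes fell in 6 of 12 cases and rose in 1, on both scales (median -0.57). Besides Gata2, the transcription factor genes Tal1 (33.3 ± 5.23 to 17.6 ± 4.04 TPM), Hoxa9 (57.3 ± 7.81 to 36.5 ± 4.46 TPM) and Lmo2 (262 ± 22.1 to 174 ± 11.2 TPM) fell without overlap. Such a lack of overlap was found for 2235 of the 14350 genes tested. Lyl1, a relative of Tal1, rose from 95.8 ± 16.8 to 196 ± 42.0 TPM (log2 fold change 1.01 ± 0.18, limma adjusted p = 0.00728, GC-corrected 0.45). Meis1, Erg and Hhex did not pass. Homing and chemokine receptor genes fell in 8 of 14 cases, 5 on both scales and 4 GC-corrected, and 0 rose. Among the 12 receptor and surface genes of lymphoid progenitors 2 rose and 5 fell, and 2 of the falls held on both scales, while GC-corrected 3 rose and 1 fell. Ly6d, the surface protein that marks the B-biased CLPs, measured 548, 466, 458 and 466 TPM in ∆Firre and 1065, 1560, 1257 and 1151 TPM in rescue (log2 fold change 1.36 ± 0.12, limma adjusted p = 0.000173). Cd34, a marker of early progenitors, fell from 221 ± 9.03 to 180 ± 10.2 TPM on the TPM scale alone, a call lost GC-corrected and in limma-voom. Crlf2, the receptor of the cytokine TSLP, rose from 27.6 ± 3.67 to 46.2 ± 8.98 TPM, but with 66.0% exon GC its GC-corrected log2 difference was -0.09.

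**Figure D3:**
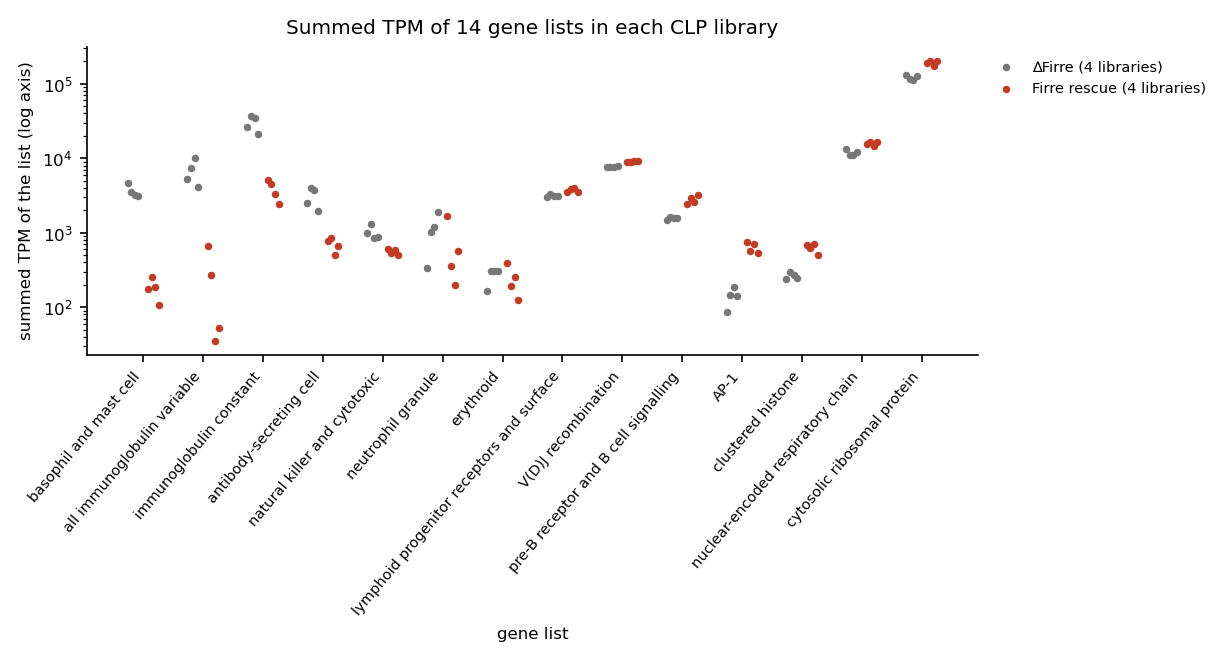
Summed TPM of 14 gene lists in the 4 ∆Firre and the 4 Firre rescue libraries (log axis, 1 point per library). The basophil and mast cell, immunoglobulin variable and antibody-secreting sums of the 4 rescue libraries lie below all ∆Firre libraries, and the AP-1, histone, ribosomal and pre-B sums lie above them.

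Genes of the pre-B receptor and of B cell signalling were higher in part. Of 19 listed genes, 17 were tested, 10 rose on both scales and 2 fell, 1 of them on both scales, and 11 rose GC-corrected, with a median log2 fold change of 0.56. Their summed level was 1500 to 1653 TPM in ∆Firre, 2424 to 3184 TPM in rescue and 1296 to 1804 TPM in WT. The largest changes were in the surrogate light chain. Vpreb1 (chr16:16868401-16869255) measured 28.0, 40.3, 34.7 and 38.8 TPM in ∆Firre and 192, 233, 147 and 257 TPM in rescue, a log2 fold change of 2.50 ± 0.18 (limma adjusted p = 5.21e-05). Igll1, its partner lambda5, measured 25.0, 39.9, 19.6 and 25.2 TPM in ∆Firre and 135, 178, 93.4 and 210 TPM in rescue, and Vpreb3 rose from 38.6 ± 12.1 to 202 ± 59.9 TPM. Vpreb2 rose from 16.6 ± 5.64 to 49.8 ± 21.4 TPM with rescue library 1 inside the ∆Firre range, a call lost in limma-voom and without ∆Firre library 9 or 11 (limma adjusted p up to 0.112). Vpreb1, Vpreb2 and the other surrogate light chain genes are close in sequence in part, and reads may be shared between Vpreb1 and Vpreb2. The palindromic EBF motif was in the promoter window of 1 of 11 tested list members with an entry, against 1.06% of all genes.

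The signalling chains of the receptor rose as well. Cd79a measured 94.0, 116, 97.3 and 88.5 TPM in ∆Firre and 207, 252, 287 and 370 TPM in rescue (log2 fold change 1.46 ± 0.17, limma adjusted p = 0.000690). Cd79b rose from 93.2 ± 12.3 to 203 ± 50.9 TPM and Cd24a from 676 ± 25.5 to 895 ± 97.0 TPM. None of the 4 rescue libraries of these genes reached down to a ∆Firre library. The same was true of 914 of the 14350 genes tested. Ms4a1 (CD20), which appears at a later stage of B cell development, was low and fell from 2.71 ± 0.429 to 0.309 ± 0.606 TPM, a call lost GC-corrected and with quantile normalization. Btk, Syk, Cd72, Cd37 and Cd22 did not pass the test. 

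B-lineage transcription factors moved in both directions, with 7 of 21 up and 5 down on both scales (GC-corrected, 12 up and 2 down). Pax5, the factor of B commitment, measured 16.5, 20.6, 14.8 and 21.7 TPM in ∆Firre and 44.7, 41.2, 65.8 and 60.3 TPM in rescue (log2 fold change 1.47 ± 0.19, limma adjusted p = 0.00135). Ebf1, the pioneer factor of early B cells, rose from 28.0 ± 5.13 to 57.9 ± 7.80 TPM, Tcf3, which encodes the E2A proteins, from 56.7 ± 11.02 to 140 ± 24.1 TPM, and the B cell coactivator Pou2af1 from 44.5 ± 9.34 to 87.5 ± 18.4 TPM. Id3 and Lef1 rose from low levels, 3.09 ± 1.57 to 12.9 ± 8.01 TPM and 2.85 ± 0.918 to 7.66 ± 1.47 TPM. The call of Id3 was lost in limma-voom and without ∆Firre library 11 or rescue library 4 (limma adjusted p up to 0.108). Ikzf3 (Aiolos), which is more abundant in mature B cells and plasma cells, fell from 16.9 ± 6.26 to 4.17 ± 1.07 TPM. Ikzf1, Myb, Irf8 and Spi1, which are shared by several lineages, did not pass.

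In the V(D)J recombination list 3 of 14 genes rose and 2 fell on both scales, and GC-corrected 6 rose and 0 fell. Of all genes tested, 7.78% rose and 11.2% fell on both scales. Rag1, a subunit of the recombinase, measured 176, 251, 155 and 182 TPM in ∆Firre and 277, 320, 334 and 318 TPM in rescue (log2 fold change 0.73 ± 0.14, limma adjusted p = 0.00993). Dntt, the terminal transferase that adds bases at junctions, was among the most abundant transcripts and rose from 5553 ± 123 to 6382 ± 160 TPM, and the DNA-bending cofactor Hmgb2 from 832 ± 85.7 to 1082 ± 75.8 TPM. The end-joining genes Lig4 and Xrcc5 fell, from 11.9 ± 1.39 to 7.09 ± 2.05 TPM and from 51.3 ± 5.89 to 36.9 ± 4.64 TPM, and both calls were lost GC-corrected, that of Xrcc5 also in limma-voom. With quantile normalization the calls of Dntt, Hmgb2 and Lig4 were lost. Rag2 did not pass the test. With 1 library left out, the limma adjusted p of Dntt was 0.099 to 0.175, and its call held without rescue library 2 only. That of Lig4 passed only without rescue library 3 or 4 (highest value 0.151), and that of Xrcc5 was lost without ∆Firre library 8 or 11 (0.109).

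**Figure D4:**
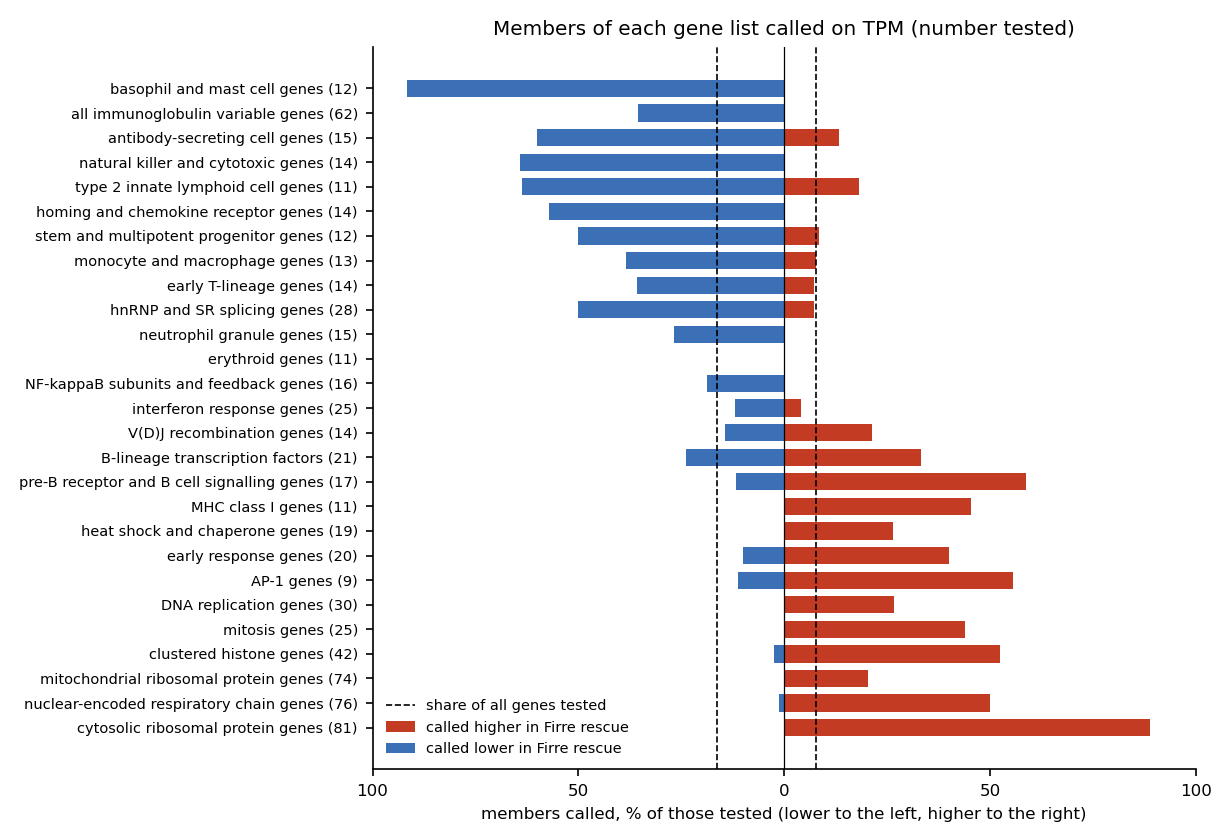
Percent of the tested members of each gene list called lower (bars to the left) and higher (bars to the right) in Firre rescue than in ∆Firre by limma at an adjusted p of 0.1 or less on TPM as deposited, with the number tested in parentheses and dashed lines at the shares of all genes tested (16.4% lower and 7.79% higher). The ribosomal protein list has 72 of 81 members higher and the basophil and mast cell list 11 of 12 lower.

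AP-1 genes had some of the largest rises. AP-1 is the dimeric transcription factor of Fos and Jun proteins, and its genes are early targets of growth factor signalling. Of 9 tested, 5 rose and 1 fell on both scales (median 1.90), and the summed level was 87.4 to 189 TPM in ∆Firre, 537 to 762 TPM in rescue and 144 to 182 TPM in WT. Fos (chr12:85473890-85477274) measured 0.523, 17.6, 26.5 and 11.01 TPM in ∆Firre and 184, 153, 174 and 94.2 TPM in rescue (log2 fold change 3.91 ± 0.76, limma adjusted p = 0.0103). Jun measured 3.67, 21.9, 38.2 and 30.5 TPM in ∆Firre and 332, 224, 282 and 236 TPM in rescue (log2 fold change 3.81 ± 0.56, limma adjusted p = 0.00282). Library 8 was the lowest of the ∆Firre libraries for both, and both rises are smaller without it. Fosb rose from 0.509 ± 0.339 to 17.7 ± 8.05 TPM, Junb from 16.4 ± 4.64 to 67.2 ± 11.4 TPM and Jund from 16.1 ± 4.09 to 62.4 ± 13.7 TPM. Fosl2 fell from 5.93 ± 0.697 to 1.80 ± 0.505 TPM, and Batf, Maff and Mafk did not pass.

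Other early response genes were divided. Of 20 tested, 8 rose on both scales and 2 fell, 1 on both scales, with a median of 0.29. Ier2 rose from 41.1 ± 9.59 to 113 ± 19.2 TPM, Egr1 from 2.75 ± 1.31 to 16.0 ± 5.06 TPM, Dusp1, a phosphatase of MAP kinases, from 7.36 ± 1.53 to 28.0 ± 3.05 TPM, and Zfp36, which destabilizes cytokine mRNAs, from 39.4 ± 10.8 to 70.3 ± 15.9 TPM. Klf6 went down from 48.2 ± 4.58 to 22.6 ± 2.81 TPM. Myc, Cd69, Nr4a1, Rgs2 and Dusp2 did not pass the test. Ppp1r15a (GADD34), the phosphatase subunit that is induced in the integrated stress response, rose from 12.3 ± 3.80 to 65.8 ± 15.8 TPM (log2 fold change 2.35 ± 0.25, limma adjusted p = 0.000500), whereas Atf4 of the same pathway measured 254 ± 17.2 and 295 ± 60.8 TPM and did not pass, and 2 of 17 genes of that list rose (4 after rescaling).

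Of 19 tested heat shock and chaperone genes 5 rose on both scales and 0 fell (median -0.01), with 9 rising and a median of 0.23 GC-corrected, and the rise on TPM was large in the inducible Hsp70 genes only. Hspa1a (chr17:34969359-34972156) measured 0.484, 0, 0 and 0 TPM in ∆Firre and 48.1, 8.13, 1.88 and 31.2 TPM in rescue (log2 fold change 3.69 ± 0.78, limma adjusted p = 0.0145). Its neighbour Hspa1b, nearly identical in its coding sequence so that reads can be assigned to either, measured 3.66, 0.238, 1.26 and 0.955 TPM in ∆Firre and 125, 24.4, 3.001 and 70.4 TPM in rescue. In both genes rescue libraries 1 and 4 were the highest and library 3 the lowest, and in Hspa1b rescue library 3 lay below ∆Firre library 8. Both calls were lost in limma-voom on the recovered reads (adjusted p of 0.281 and 0.397). The constitutive Hspa8 rose from 944 ± 135 to 1215 ± 130 TPM and Dnajb1 from 111 ± 16.8 to 150 ± 20.5 TPM. Both calls were lost without any 1 of ∆Firre libraries 9, 11 and 12 and rescue library 4, and that of Dnajb1 also without rescue library 1 (limma adjusted p up to 0.155 and 0.145). That of Hspa8 was lost with quantile normalization too. The genes Hsp90aa1, Hsp90ab1, Hspd1 and the TCP-1 ring genes Tcp1, Cct2, Cct3, Cct4 and Cct5 did not pass. The core of a heat shock element, GAANNTTC, which reads the same on both strands, was in the 300-base promoter window of 8 of 13 list members with an entry, against 9.04% of all genes. It is shown in capitals in the 250 bases before the start of Hspa1a (chr17:34972157-34972406, minus strand, RefSeq, GRCm38.p6), 104 bases before the start.
Hspa1a: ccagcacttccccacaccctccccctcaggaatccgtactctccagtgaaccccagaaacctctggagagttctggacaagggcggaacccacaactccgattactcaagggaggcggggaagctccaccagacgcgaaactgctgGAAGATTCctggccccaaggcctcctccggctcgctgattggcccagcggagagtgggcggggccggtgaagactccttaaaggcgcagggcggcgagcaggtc

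Clustered histone genes, most of whose mRNAs end in a stem loop in place of a poly(A) tail and are made in S phase, were higher in part. Of 59 listed genes, 42 were tested, 22 rose on both scales, 19 did not pass and 1 fell on the TPM scale (median 1.72). GC-corrected 16 rose and 0 fell (median 1.38), and in limma-voom 16 rose. The summed level was 239 to 296 TPM in ∆Firre, 511 to 707 TPM in rescue and 198 to 370 TPM in WT. H1f5, a linker histone, measured 2.48, 3.81, 1.85 and 5.77 TPM in ∆Firre and 53.6, 31.8, 49.2 and 15.7 TPM in rescue (log2 fold change 3.04 ± 0.40, limma adjusted p = 0.00158). H4c2 rose from 1.10 ± 0.860 to 20.8 ± 8.55 TPM, H2bc22 from 0.0726 ± 0.145 to 9.99 ± 7.91 TPM, H4c18 from 0.654 to 15.7 TPM on average, and H4c9, the most abundant of the rising members, from 29.9 ± 13.03 to 81.6 ± 30.0 TPM. H2ac22 was listed at 0 in every ∆Firre library and measured 1.67, 19.9, 1.92 and 17.6 TPM in rescue, a call lost GC-corrected. These members apart from H4c9 were also among the 12 largest rises of this ranking, together with Firre, Fos, Jun, Fosb, Hspa1a, C1qc and Rpl36. Copies of core histone genes are close in sequence, so that levels of single members are uncertain. The libraries were made from poly(A)-containing RNA, and the part of histone mRNA tails in the difference was not tested.

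The octamer ATTTGCAT (both strands) was in the promoter window of 10 of 38 tested histone genes with an entry, against 1.97% of all genes, and CCAAT (both strands) in 31 of 38 against 41.1%. The sequence shown is that of H2bc8, which measured 4.73, 2.096, 0 and 7.11 TPM in ∆Firre and 28.2, 21.6, 20.8 and 24.5 TPM in rescue. The octamer, in capitals, lies 59 bases before the start (chr13:23571150-23571399, plus strand, GRCm38.p6).
H2bc8: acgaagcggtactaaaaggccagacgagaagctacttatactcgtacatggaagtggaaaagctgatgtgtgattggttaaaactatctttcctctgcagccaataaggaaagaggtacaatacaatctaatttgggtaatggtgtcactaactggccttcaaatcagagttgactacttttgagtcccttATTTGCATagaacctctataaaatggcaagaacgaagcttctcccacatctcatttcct

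Cytosolic ribosomal protein genes rose nearly throughout. Of 81 tested 72 rose on both scales and 0 fell, with 74 rising GC-corrected, and the median log2 fold change was 0.59 (0.71 after rescaling, 0.83 GC-corrected) against -0.16 over all genes. With quantile normalization the median was lower, at 0.39 against 0.02 over all genes. Their sum was 132263, 116129, 111187 and 126678 TPM in ∆Firre and 190316, 202650, 174520 and 199658 TPM in rescue, and 117675 to 128349 TPM in WT. Among the most abundant members that rose were Rps24 (5065 ± 384 to 7337 ± 1107 TPM), Rps3a1 (5162 ± 199 to 7127 ± 513 TPM) and Rps12 (3506 ± 594 to 6577 ± 354 TPM). Rpl36 stood apart with 211, 159, 274 and 271 TPM in ∆Firre and 1825, 1215, 1913 and 1743 TPM in rescue (log2 fold change 2.88 ± 0.20, limma adjusted p = 3.58e-05). Rpl24, Rpl4 and Rpl3 did not pass. These genes have many processed pseudogenes, and reads may be shared with them. CTTCCG, the core of many ETS sites (both strands), was in the promoter window of 40 of 60 tested members with an entry, against 18.8% of all genes.

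Of 24 translation factors 4 rose and 4 fell on TPM (2 of the falls on both scales), and GC-corrected 9 rose and 0 fell. The share that fell on TPM was near the 16.4% of all genes called lower. Eef2 rose from 1775 ± 238 to 2927 ± 599 TPM, a call lost with quantile normalization (limma adjusted p = 0.244), whereas Eef1a1 measured 10535 ± 518 and 10589 ± 604 TPM (log2 difference 0.01, limma adjusted p = 0.962, GC-corrected 0.36 and passing the test). Nuclear genes of the respiratory chain rose in 38 of 76 cases, 54 of 76 GC-corrected, and 1 fell on the TPM scale (median 0.46). Ndufa6 of complex I rose from 335 ± 53.5 to 553 ± 44.7 TPM and Atp5l of the ATP synthase from 266 ± 23.9 to 466 ± 64.6 TPM. Cox8a of complex IV rose from 562 ± 115 to 801 ± 133 TPM with overlapping groups, a call lost GC-corrected and also without any 1 library except ∆Firre 8 and rescue 3 (limma adjusted p up to 0.156). Mitochondrial ribosomal proteins rose in 15 of 74 cases and 0 fell, with 23 rising after rescaling and 26 GC-corrected. Among the 15 were Mrpl34 (93.6 ± 6.48 to 198 ± 17.7 TPM) and Mrps21 (86.9 ± 11.2 to 150 ± 15.6 TPM). Of the 13 genes of mitochondrial DNA 2 fell and 0 rose on TPM, a share near the 16.4% of all genes called lower, and with the GC correction 5 rose and 0 fell. mt-Nd5 fell from 6711 ± 535 to 4441 ± 768 TPM and had a GC-corrected log2 difference of -0.08. Proteasome subunits rose in 7 of 37 cases and 1 fell, with 13 rising after rescaling, and 19 rising and 0 falling GC-corrected.

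**Figure D5:**
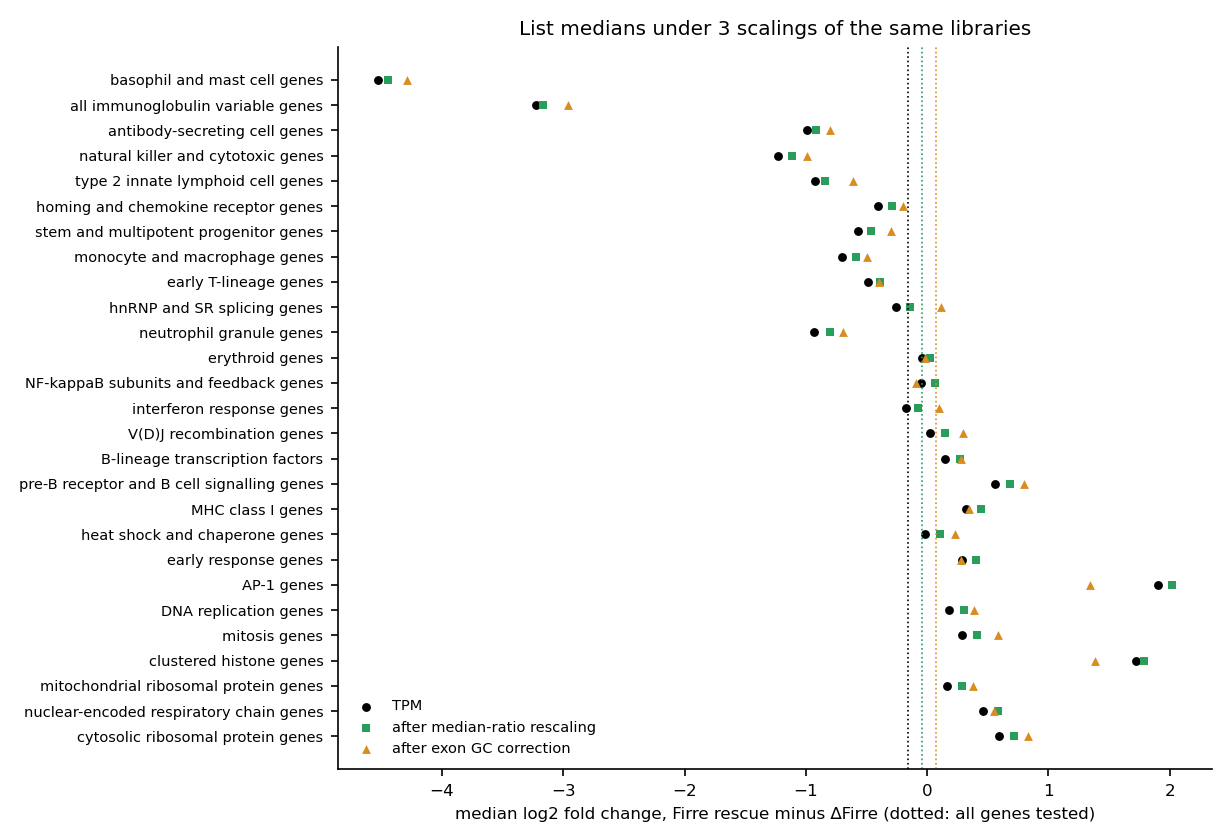
Median log2 fold change (Firre rescue minus ∆Firre) of the tested members of each list on TPM as deposited, after median-ratio rescaling and after GC correction, with a dotted line for each at the median of all genes tested (-0.16, -0.04 and 0.08). The basophil list lies lowest at -4.53, -4.44 and -4.29, the hnRNP and SR list crosses 0 with the GC correction (-0.26, -0.14 and 0.11), and the ribosomal list stays above 0 (0.59, 0.71 and 0.83).

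Cell cycle genes were higher in part. Of 30 DNA replication genes 8 rose and 0 fell, and of 25 mitosis genes 11 rose and 0 fell on both scales, with 14 and 24 rising GC-corrected. Rrm2, the ribonucleotide reductase subunit of S phase, measured 168, 160, 124 and 152 TPM in ∆Firre and 182, 211, 215 and 220 TPM in rescue (log2 fold change 0.46 ± 0.11, limma adjusted p = 0.0255). Pcna rose from 369 ± 54.7 to 476 ± 49.4 TPM with overlapping groups, and passed only while ∆Firre libraries 9, 11 and 12 and rescue libraries 2 and 4 were all kept (limma adjusted p up to 0.157 otherwise). Bub1b of the spindle checkpoint rose from 77.2 ± 6.18 to 113 ± 19.7 TPM and the spindle factor Tpx2 from 79.8 ± 7.99 to 110 ± 14.4 TPM. The D cyclins diverged. Ccnd3, the D cyclin that pre-B cells need, rose from 55.3 ± 4.13 to 112 ± 23.4 TPM and E2f2 from 22.8 ± 1.85 to 47.7 ± 12.9 TPM. Ccnd2 fell from 191 ± 23.8 to 141 ± 15.9 TPM and Ccnd1 from 28.8 ± 3.84 to 17.6 ± 4.62 TPM, as did the pocket protein gene Rbl2 (81.5 ± 2.54 to 46.6 ± 3.47 TPM) and the inhibitor Cdkn1b (88.2 ± 12.6 to 59.6 ± 10.4 TPM). The calls of Ccnd2 and Cdkn1b were lost GC-corrected, that of Ccnd2 also without ∆Firre library 11 or 12 and that of Ccnd1 without ∆Firre library 8, 9 or 11 (limma adjusted p up to 0.109 and 0.124).

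In the Bcl2 family 3 of 14 genes rose and 1 fell, beside 7.79% higher and 16.4% lower of all genes tested on TPM. Bcl2, which protects lymphoid progenitors from apoptosis, measured 144, 138, 168 and 167 TPM in ∆Firre and 86.8, 65.6, 100.6 and 73.7 TPM in rescue (log2 fold change -0.92 ± 0.14, limma adjusted p = 0.00327). The proapoptotic members Bax (54.0 ± 9.92 to 95.0 ± 24.4 TPM), Bak1 (43.1 ± 5.19 to 69.9 ± 18.3 TPM) and Bik (1.92 ± 0.874 to 6.10 ± 1.16 TPM) rose, and the calls of Bax, Bik and Bak1 were lost, GC-corrected for Bax, in limma-voom for Bik and without ∆Firre library 9 for Bak1 (limma adjusted p = 0.108). Mcl1 and Bcl2l11 did not pass the test. Of 11 MHC class I presentation genes 5 rose and 0 fell, including H2-K1 (944 ± 59.4 to 1224 ± 186 TPM), H2-D1 (731 ± 11.2 to 946 ± 119 TPM) and the immunoproteasome subunit Psmb8 (226 ± 9.79 to 312 ± 41.9 TPM). In the MHC class II list of 10 genes 3 rose, among them H2-DMa (126 ± 6.38 to 190 ± 24.8 TPM), and the invariant chain Cd74 fell from 226 ± 33.0 to 151 ± 44.9 TPM with overlapping groups. With quantile normalization the calls of H2-K1 and H2-D1 were lost. The call of H2-K1 was also lost without any 1 of the ∆Firre libraries or rescue library 4, and that of Cd74 without any 1 library except rescue 3 (limma adjusted p up to 0.147 and 0.174).

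Calls of RNA-binding and chromatin genes changed with the GC correction. Of 28 hnRNP and SR splicing genes, which have been linked to Firre through its nuclear matrix partner, 14 fell and 2 rose on TPM (median -0.26) and 11 fell on both scales, but GC-corrected 10 rose and 1 fell (median 0.11). Hnrnpa1 fell from 2067 ± 135 to 1570 ± 155 TPM, Hnrnpa2b1 from 890 ± 17.6 to 647 ± 54.6 TPM and Hnrnph1 from 759 ± 64.8 to 446 ± 107 TPM, and their GC-corrected log2 differences were -0.17, 0.02 and -0.27 without passing the test. Srsf9, with 55.6% exon GC, rose from 104 ± 13.2 to 152 ± 20.9 TPM under both treatments of the data. NuRD and CtBP corepressor genes rose in 5 of 18 cases (8 after rescaling, 9 GC-corrected) and 1 fell on the TPM scale. Mbd3 (66.0 ± 9.34 to 144 ± 39.6 TPM), Mta1 (118 ± 12.2 to 184 ± 37.5 TPM) and Ctbp1 (111 ± 7.20 to 170 ± 26.8 TPM) rose also GC-corrected. Of 26 chromatin-modifying enzymes 1 rose and 4 fell on TPM, no more than the shares of all genes (7.79% higher and 16.4% lower). Of the falls 1 held on both scales, and GC-corrected 1 gene rose and 1 fell. The gene that rose, Smarca4, the ATPase of BAF complexes, went from 115 ± 16.3 to 216 ± 46.2 TPM, and Tet2, a 5-methylcytosine dioxygenase, fell from 18.2 ± 2.01 to 8.30 ± 2.33 TPM.

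The remaining lists moved little or in both directions. Their counts on TPM stand beside 7.79% higher and 16.4% lower of all genes tested. Of 12 plasmacytoid dendritic cell genes 3 rose and 3 fell, 2 of the falls on both scales, and GC-corrected 3 rose and 0 fell. Cox6a2, a respiratory chain subunit found in these cells, rose from 184 ± 17.1 to 365.7 ± 94.1 TPM and the surface protein gene Bst2 from 136.8 ± 22.1 to 181.9 ± 20.7 TPM, whereas Tcf4, the transcription factor that the lineage depends on, fell from 59.0 ± 6.21 to 37.4 ± 6.71 TPM. GC-corrected, Tcf4 and Bst2 did not pass (log2 differences of -0.27 and 0.32). The call of Bst2 held only with ∆Firre library 8 or rescue library 3 or 4 as the one left out (limma adjusted p up to 0.148 otherwise). Of 16 NF-kappaB genes 3 fell and 0 rose on TPM, a share near that of all genes (16.4%), and after median-ratio rescaling 3 fell and 3 rose. Those that fell on TPM include the inhibitor Nfkbia (158.2 ± 14.8 to 116.9 ± 7.63 TPM) and the subunit Rel (49.8 ± 4.02 to 36.8 ± 4.03 TPM). GC-corrected Nfkbia alone passed, a call lost in limma-voom. The call of Rel was lost without ∆Firre library 9 or 11 (limma adjusted p up to 0.105). Of 20 genes of protein folding in the endoplasmic reticulum 6 fell and 2 rose, which the GC correction turned to 1 falling and 6 rising. Hsp90b1 fell from 752.6 ± 38.5 to 569.2 ± 33.2 TPM (GC-corrected log2 difference -0.01), and Sec61b, of the translocation channel, rose from 208.9 ± 30.7 to 306.9 ± 9.75 TPM under each treatment. Among 25 interferon response genes 1 rose and 3 fell (GC-corrected 1 rose and 0 fell), with Ifi27l2a going from 47.8 ± 17.02 to 107.7 ± 33.0 TPM. In the integrated stress response list 1 gene fell, Slc3a2, a subunit of amino acid transporters (60.8 ± 2.65 to 40.99 ± 4.54 TPM), and Phgdh of serine synthesis rose with Ppp1r15a (193.9 ± 27.5 to 295.8 ± 73.6 TPM), a call lost without any 1 library except rescue 1 and 2 (limma adjusted p up to 0.149). Glycolysis genes gave 2 rises and 2 falls of 16 on TPM, 5 and 2 after rescaling, and 3 and 4 GC-corrected. The falls on TPM were the glucose transporter Slc2a3 (30.7 ± 1.96 to 15.5 ± 3.24 TPM) and the phosphofructokinase Pfkp (16.9 ± 2.71 to 7.31 ± 1.12 TPM). Cholesterol synthesis genes gave 2 rises and 1 fall of 19 (2 and 0 GC-corrected), with the regulator Srebf2 at 85.2 ± 12.2 and 127.1 ± 20.8 TPM. Of 24 genes of CTCF, cohesin and Polycomb 2 rose and 6 fell on TPM, 3 of the falls held on both scales, and GC-corrected 6 rose and 1 fell. Wapl, which releases cohesin, fell from 129.9 ± 5.61 to 90.3 ± 9.78 TPM (GC-corrected log2 difference -0.11).

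Of 7 abundant long non-coding RNAs 3 fell and 0 rose, and GC-corrected 2 fell and 1 rose. Neat1, the scaffold of paraspeckles, measured 18.04, 20.6, 18.6 and 16.7 TPM in ∆Firre and 3.85, 2.20, 6.68 and 2.92 TPM in rescue (log2 fold change -2.06 ± 0.28, limma adjusted p = 0.00163). Malat1 measured 196, 241, 235 and 218 TPM in ∆Firre and 111, 62.2, 211 and 80.6 TPM in rescue, with rescue library 3 inside the ∆Firre range (log2 fold change -1.08 ± 0.31, limma adjusted p = 0.0439, lost GC-corrected and without any 1 of ∆Firre libraries 9, 11 and 12 and rescue library 4). Mir17hg, the host of a microRNA cluster, fell from 53.9 ± 10.9 to 23.9 ± 8.38 TPM. Of 56 tested small nucleolar and Cajal body RNAs 12 fell and 2 rose, and the falls numbered 9 on both scales, 7 GC-corrected and 5 in limma-voom, against 16.4% of all genes called lower on TPM. The members that rose were Snord13 (82.5 ± 26.4 to 578 ± 429 TPM) and Snord104 (94.2 ± 51.3 to 300 ± 71.6 TPM). The call of Snord13 was lost in limma-voom. The short length of these RNAs makes their TPM depend on few reads and on reads of their host genes.

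Genes near the Firre locus and genes that earlier work placed in contact with it in the nucleus were taken separately. Of 5 tested X-linked neighbours 3 fell on the TPM scale, 1 on both scales and 0 GC-corrected. Rap2c, a Ras-related GTPase gene (chrX:51003912-51020091), fell from 91.9 ± 13.1 to 60.2 ± 7.03 TPM on both scales (GC-corrected log2 difference -0.06), and Stk26 from 169 ± 11.8 to 132 ± 15.3 TPM on the TPM scale (GC-corrected 0.11). Gpc4 was low, at 3.60 ± 0.788 and 1.15 ± 1.30 TPM, with overlapping groups and a call lost GC-corrected, and Enox2 and Mbnl3 did not pass. The call of Stk26 was lost without ∆Firre library 9 or 12, and Gpc4 passed with rescue library 1 or 3 left out but not with any other (limma adjusted p up to 0.115 and 0.190). Of 4 tested genes named as trans contacts, Slc25a12 fell from 57.6 ± 6.44 to 43.8 ± 3.83 TPM (log2 fold change -0.38 ± 0.12, limma adjusted p = 0.0563, up to 0.139 without ∆Firre library 11 or 12 or rescue library 4, GC-corrected -0.07), and Eef1a1, Atf4 and Ppp1r10 did not pass the test. The differences of these 4 genes were between -0.38 and 0.20 on the log2 scale.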

How the data were processed

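RNA was measured in CLPs sorted from bone marrow of male mice as lineage-negative, Sca1lo, cKitlo and IL7Rα+ cells, with 1 mouse per library. Per the methods of the study, the authors made poly(A)-selected libraries with a template-switching kit, sequenced them in paired ends, trimmed reads with cutadapt, aligned them to mm10 with TopHat2 2.1.1 and counted them with featureCounts on Gencode genes. The deposited values are TPM (levels per unit of transcript length, as a share of the library) of 47643 genes in 12 libraries. The strand and multimapping settings and the gene lengths used are not given in the sources used here, so reads of overlapping and near-identical genes may be shared, and the authors' scaling sets the TPM of all genes when a few abundant ones change.

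The 14350 genes whose TPM averaged 1 or more in the 8 libraries compared were tested on log2(TPM + 1) with limma 3.58.1 (R 4.3.3, trended empirical Bayes, 4 against 4 libraries, 2-sided), and called where the p adjusted over all of them after Benjamini and Hochberg was at most 0.1. A fold change on this scale understates the change of low genes. Firre and the summed immunoglobulin variable genes were tested by exact permutation of the library labels. Groups come from the sample labels. The p-values cover the spread between these mice only. Reads were recovered from the step size of the TPM. Of the tested genes, 99.99% gave whole numbers in every library within a tolerance of 0.02 reads, widened for genes with many reads. Genes with whole reads held 96.7% to 97.3% of the TPM of the 8 libraries compared, and the others are not in the read totals. On these reads limma-voom called 1531 genes higher and 1770 lower. Recovered reads per library (14099623 to 32016169) set the counting precision, and TPM of genes with few reads are the least precise.

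Alternatives were another scaling (median ratio, quantile, or without abundant genes), a pseudocount of 0.1 or 5, other filters on low values, all 12 libraries in one fit, other variance models, an empirical null from the central 75% of the statistics, a spline of 4 degrees of freedom on exon GC content in each library, 2 of the ∆Firre libraries alone, and each library left out. Gene names were matched by gene identifier to reference tables. Positions and promoters come from RefSeq on GRCm38.p6, and exon GC content from gene models of an older build, so no coordinates of that build are printed. Genes with no name in these tables were tested but not named. The limma test was also run on simulated reads with known changes in some genes. The simulation held no GC trend and no preparation difference between the groups, so it does not cover these features of the data. Python 3.11.15, numpy 2.4.6, pandas 2.3.3 and matplotlib 3.10.9 were used otherwise.

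Gene lists, comparisons and the rule for named genes were chosen with earlier results of these data known, and a share of calls in a list is a description beside the share of all genes. The rule named Firre, the 12 largest rises and 12 largest falls among genes averaging 5 TPM or more that were called on both scales without overlap of the groups (immunoglobulin genes, given as lists, and predicted, small RNA and unnamed genes were left out of this ranking), up to 4 abundant called genes per list with up to 2 called the other way, the markers of the sort, and the neighbour and contact genes. A further 12 genes (Igll1, Vpreb2, Vpreb3, Id3, Lef1, Egr1, Dusp1, Il1rl1, Klrb1c, Gzmb, Prdm1 and Tnfrsf17) were chosen after their values were seen, as were the members named as not passing the test. Some genes that fall under this rule are not reported here.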

Additional observations from a re-analysis of the deposited data

Results flagged for a closer look

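Among 440 groups of 4 values (genes, list sums and library totals), 28 held a library that stood apart from the other 3 by Dixon's ratio at its 95% critical value, where chance gives about 1 in 20 groups, or 22. On the log2(TPM + 1) scale, 10 of these were genes at or near 0 in the other 3 libraries. In rescue library 2 they were Ms4a1 (1.15), Ms4a2 (0.17), Fcer1a (2.83), Ccr1 (0.36), Ppbp (2.05) and Tnfrsf17 (1.52), in rescue library 1 Cd200r3 (1.02) and Gzmb (0.21), and in ∆Firre library 8 Hspa1a (0.57) and H2bc22 (0.37). Itga2b was low in rescue library 3, at 0.17 against 1.13 to 1.29 in the others.

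Rescue library 2 was also lowest for Hes1 (4.69, others 5.17 to 5.27), Lyl1 (7.07, others 7.72 to 7.82), Ccnd2 (6.88, others 7.20 to 7.25) and Wapl (6.26, others 6.57 to 6.60). Il9r was lowest in rescue library 4 (2.15, others 3.11 to 3.29) and Hnrnpa1 highest in rescue library 3 (10.82, others 10.54 to 10.56). ∆Firre library 8 was highest for Ly6d (9.10, others 8.84 to 8.87), Prss34 (10.92, others 10.42 to 10.47) and Cox8a (9.52, others 8.92 to 9.02), and had the most genes above 0 (19098, others 17910 to 18009). ∆Firre library 9 was highest for Irf5 (4.59, others 4.15 to 4.21) and lowest for Bst2 (6.71, others 7.17 to 7.25) and Phgdh (7.27, others 7.68 to 7.72).

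Of the list sums on the log2 scale, rescue library 2 was highest for plasmacytoid dendritic cell genes (10.14, others 10.10) and lowest for MHC class II genes (9.78, others 10.03 to 10.08). ∆Firre library 8 was lowest for erythroid genes (7.38, others 8.25 to 8.27) and ∆Firre library 9 for glycolysis genes (10.67, others 10.99 to 11.02). The cause of these differences was not tested.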

How the results depend on the processing

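No paired analysis was possible because the Firre rescue and ∆Firre libraries share no mouse number. The 2 ∆Firre libraries numbered 8 and 11 and the 2 numbered 9 and 12 were prepared under neighbouring library numbers, and each pair was also set alone against the 4 rescue libraries.

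The share of tested genes called higher (7.79%) was 12.3% with median-ratio rescaling, 12.8% with quantile normalization, 5.14% at an adjusted p of 0.05, 1.80% (258 genes) against ∆Firre 8 and 11 alone, 2.26% (325 genes) against ∆Firre 9 and 12 alone, and 4.65% (668 genes, without ∆Firre 9) to 9.96% (1429 genes, without rescue 2) with 1 library left out, with 5.17% without rescue 4. The share called lower (16.4%) was 5.51% (716 genes) with the exon GC correction, 9.87% at an adjusted p of 0.05, 3.65% (524 genes) against ∆Firre 8 and 11, 4% (574 genes) against ∆Firre 9 and 12, and 9.73% (1396 genes, without ∆Firre 12) to 21.6% (3104 genes, without rescue 3) with 1 library left out, with 1486, 1405 and 1435 genes without ∆Firre 8, 9 and 11. With the empirical null both were 0 in limma, where 610 genes had an unadjusted p under 0.05, and limma-voom on recovered reads called 1531 and 1770 genes. Fewer libraries enter the fits that leave some out, and the cause of the other shifts was not tested.

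The log2 difference of Firre was 6.62 against either ∆Firre pair, with an exact permutation p of 0.0667, the smallest that 4 against 2 libraries allow. That of the summed immunoglobulin variable genes was -5.70 and -5.32 against the pairs (exact permutation p = 0.0667 for both), and -6.28 to -4.87 with 1 library left out (-5.30 without ∆Firre 11, exact permutation p = 0.0571).

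Of 168 genes given with values, 160 were called and 158 kept their direction in every fit. Of the called genes, 133 also passed with each library left out. In every other fit apart from the empirical null, 64 passed at an adjusted p of 0.1. Most of these genes were named because they were called, so these counts are set in part by that choice and do not describe all called genes. The log2 difference of Il7r turned to 0.069 with median-ratio rescaling, 0.39 with the GC correction, 0.060 with limma-voom and 0.13 against ∆Firre 8 and 11, and ranged from -0.13 to 0.055 with 1 library left out. Ly6a turned to -0.056 against ∆Firre 8 and 11 (-0.081 to 0.070 with 1 library left out), Flt3 was -0.00793 to 0.14 with 1 library left out, and Eef1a1 was -0.034 against ∆Firre 8 and 11 (-0.029 to 0.041 with 1 library left out). With the GC correction, Crlf2 turned to -0.095, Hnrnpa2b1 to 0.019, Stk26 to 0.11, Enox2 to 0.10 and Mbnl3 to 0.12. Ppp1r10 was 0.013 with median-ratio rescaling, 0.00026 with quantile normalization, 0.012 with limma-voom and -0.21 to 0.033 with 1 library left out. Of 1040 recomputed list medians, 163 moved by more than 1 SD. Low transcripts rest on few reads, and a gene listed at 0 can be below detection at this depth.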
